A study of Mus musculus with 24 samples.

Results

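The 35 genes described here belong to the interferon response and to antigen presentation in mouse lung. They comprise 4 transcription factors that carry or amplify the interferon signal (Stat2, Irf1, Irf7, Irf9), 19 antiviral effectors and their regulators (Ifit1, Ifit2, Ifit3, Isg15, Isg20, Mx1, Mx2, Oas1a, Oas2, Oas3, Oasl1, Oasl2, Rsad2, Usp18, Ifih1, Ifi35, Ifi44, Bst2, Eif2ak2), 3 interferon-inducible GTPases (Gbp2, Igtp, Irgm1), 7 genes of peptide supply to MHC class I (Psmb8, Psmb9, Psmb10, Tap1, Tap2, Tapbp, B2m) and 2 genes of MHC class II (Ciita, Cd74). The rule takes genes by symbol and uses no measured value, but the list was chosen with earlier results of these data known. They are 35 of the 27401 genes named on the array. All 35 were found, 3 of them under older symbols (Irf9 as Isgf3g, Irgm1 as Irgm, Ciita as C2ta). All 35 gave signals well above background on each of the 24 arrays, none was saturated, and all were tested.

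Type I and type III interferons act through receptors that switch on a complex holding STAT2 and IRF9, which binds interferon-stimulated response elements (ISRE) and turns on antiviral genes such as the Ifit, Oas and Mx families. Interferon gamma acts on gamma-activated sites (GAS), and through IRF1 and CIITA raises GTPases, the immunoproteasome, the peptide transporter and MHC class II. In lung these programmes run in macrophages, dendritic cells, lymphocytes, endothelium and epithelium, and nucleic acid set free or mislaid after DNA damage is among the known triggers of interferon production.

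RNA was from whole lung of mice, hybridised to Agilent single-colour arrays 24 days after irradiation. The untreated group is called ctrl; 5 further unirradiated groups received a drug (Ly, Imatinib or Su) or a pair of drugs (Ly+Imatinib or Ly+Su), and the 6 irradiated groups are Irradiation, with no drug, and the same 5 treatments added to it, Irradiation+Ly to Irradiation+Ly+Su. Each of the 12 groups had 2 arrays. Imatinib blocks the kinases ABL and KIT and the PDGF receptors. What Ly and Su stand for is not spelled out in the labels, which also give no strain, sex, age, radiation dose, drug dose or schedule. The study asked what blocking the PDGF and TGF-beta pathways together does to lung fibrosis after radiation. The labels call the arrays of a group biological replicates, and the p-values measure only the spread between these samples. Because the tissue was taken whole, a change in the number of cells of a type and a change in RNA per cell cannot be told apart.

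Levels are given as log2 of the processed signal minus log2 of the array's 75th percentile, so 0 is the 75th percentile of that array. Levels were compared between arrays, never between genes. A gene was called where limma's Benjamini-Hochberg adjusted p over the 20409 genes tested was under 0.05. Differences are on the log2 scale with their standard error (SE). The 75th percentile of signal lay between 704 and 2518, and 62.0% to 78.5% of spots were well above background. Markers of alveolar epithelium (8 genes) and of airway epithelium (4 genes) were well above background on all 24 arrays.

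Several arrays stood apart. The Su arrays differed from each other by less than the arrays of any other group: over the 500 genes most variable within the other groups their spread was 0.143, against 0.427 to 1.24 in the other 11 groups, although over the 10000 least variable genes it was 0.106, against 0.108 to 0.515. They were averaged and counted as 1 sample, which leaves 23 samples, and Su then has no spread of its own. Irradiation array 1 had the highest 75th percentile (2518) and the lowest spike-in signal (8.51 on the log2 scale, against 9.18 to 10.67 on the others). It was the highest of the 24 arrays for 25.6% of the genes tested and the lowest for 21.6%, and for 13 and 7 of the 35 members. Results that use the Irradiation group are therefore also given without that array. The Irradiation arrays had the widest spread of the 12 groups, 0.515 over the 10000 least variable genes, with Ly next at 0.251. Because the estimate of spread is shared, SEs and p-values of comparisons with Irradiation can understate the spread of its arrays. The arrays lay on 6 slides, each with samples that were all irradiated or all unirradiated, so irradiation and slide cannot be told apart. The same holds for Irradiation+Imatinib, Irradiation+Su, Irradiation+Ly+Imatinib and Irradiation+Ly+Su against Irradiation, which lay on other slides. ctrl shared a slide with Ly, Irradiation with Irradiation+Ly, and Imatinib with Su.

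The promoters of 28 members were available (RefSeq, GRCm38.p6, the first listed start of each gene, 250 bases before the start and 50 from it). A strict ISRE-type motif, GAAANNGAAA on either strand, lay in 14 of the 28 and in 943 of 27025 promoters of the same length, 3.49% of them. A GAS-type motif, TTCNNNGAA on either strand, lay in 9 of the 28 and in 2288 promoters, 8.47% of the total. The 14 members with the ISRE-type letters were Stat2, Ifit1, Ifit3, Isg15, Oas1a, Oas3, Rsad2, Ifih1, Bst2, Eif2ak2, Gbp2, Igtp, Irgm1 and B2m. The 160 bases before the start are shown for the 4 members that were called higher in Irradiation than in ctrl (Ifit1, Isg15, Ifit3, Ifi44), and for B2m and Ifi35, the members with the smallest adjusted p in each direction over all arms. They lie at Ifit1 chr19:34640729-34640888 on the plus strand, Isg15 chr4:156200819-156200978 on the minus strand, Ifit3 chr19:34583369-34583528 on the plus strand, Ifi44 chr3:151749911-151750070 on the minus strand, B2m chr2:122147527-122147686 on the plus strand and Ifi35 chr11:101448252-101448411 on the plus strand. Each runs 5′ to 3′ on the gene's strand, and capitals mark letters of the ISRE-type motif; 1.75% of all promoters hold it in this shorter window.
Ifit1: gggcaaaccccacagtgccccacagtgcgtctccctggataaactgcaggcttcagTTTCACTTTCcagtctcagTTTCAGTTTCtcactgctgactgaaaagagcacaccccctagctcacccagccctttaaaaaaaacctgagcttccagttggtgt
Isg15: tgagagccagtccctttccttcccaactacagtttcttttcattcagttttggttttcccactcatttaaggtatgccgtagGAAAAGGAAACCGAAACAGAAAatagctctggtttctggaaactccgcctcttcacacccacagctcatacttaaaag
Ifit3: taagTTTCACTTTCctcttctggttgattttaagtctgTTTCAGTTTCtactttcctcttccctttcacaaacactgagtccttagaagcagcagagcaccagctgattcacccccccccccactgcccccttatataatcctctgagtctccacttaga
Ifi44: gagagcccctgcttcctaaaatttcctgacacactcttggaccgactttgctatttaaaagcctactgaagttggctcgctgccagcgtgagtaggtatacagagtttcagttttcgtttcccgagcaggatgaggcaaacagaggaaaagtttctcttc
B2m: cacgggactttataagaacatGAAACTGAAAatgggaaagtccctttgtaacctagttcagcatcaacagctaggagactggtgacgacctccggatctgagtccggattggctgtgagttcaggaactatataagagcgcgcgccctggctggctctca
Ifi35: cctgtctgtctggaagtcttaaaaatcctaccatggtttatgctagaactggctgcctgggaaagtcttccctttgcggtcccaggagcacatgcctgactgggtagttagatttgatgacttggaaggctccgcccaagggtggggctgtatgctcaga
Ifit1 and Ifit3, both on chromosome 19, each hold 2 separate matches, Isg15 holds 3 that overlap and B2m holds 1. Ifi44 and Ifi35 hold none in this window, which says only that these letters are not there. A match is a run of letters, and binding was not measured.

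Irradiation alone was compared with ctrl to ask which of these genes differed in irradiated lung that received no drug. Ifit1, Isg15, Ifit3 and Ifi44 rose, by 2.37-fold, 2.11-fold, 1.55-fold and 1.90-fold, and no member fell. These 4 of 35 compare with 5.32% of all genes called higher. The median difference of the 35 was 0.33, against -0.00 over all genes. An unadjusted p under 0.05 was found for 17 members and for 6483 of the 20409 genes tested. Of the 19 antiviral effectors 16 had positive differences, with a median of 0.56. The 4 transcription factors had a median of -0.39, and none passed. When Irradiation array 1 was left out, 15 of the 19 effectors were positive, with a median of 0.40, and the transcription factors were Stat2 at -0.19, Irf9 at -0.46, Irf1 at 0.03 and Irf7 at 0.53.

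Ifit1 encodes an RNA-binding protein that blocks translation of foreign transcripts. Its level was -1.3 and -0.76 on the ctrl arrays and 0.61 and -0.18 on the Irradiation arrays, a difference of 1.24 ± 0.24 (SE; adjusted p = 0.0142). Without irradiation the drug groups read Ly -1.17 and -1.21, Imatinib -1.08 and -1.26, Su -0.90 and -0.90, Ly+Imatinib -1.54 and -1.55 and Ly+Su -1.22 and -1.12. With irradiation they read Irradiation+Ly -0.75 and -1.04, Irradiation+Imatinib -1.08 and -0.56, Irradiation+Su -1.12 and -0.87, Irradiation+Ly+Imatinib -0.86 and -0.78 and Irradiation+Ly+Su -1.02 and -1.09. Both Irradiation arrays lay above the other 22, and the lower of them was array 2.

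Isg15 encodes a ubiquitin-like protein that is joined to other proteins during the interferon response. It stood at 0.46 and 0.84 in ctrl and at 1.75 and 1.70 in Irradiation, and the difference was 1.08 ± 0.23 (SE; adjusted p = 0.0185). The unirradiated drug arrays were Ly 0.86 and 0.47, Imatinib 0.74 and 0.59, Su 0.61 and 0.70, Ly+Imatinib 0.54 and 0.54 and Ly+Su 0.62 and 0.65. Those that were also irradiated were Irradiation+Ly 0.61 and 1.06, Irradiation+Imatinib 0.39 and 1.08, Irradiation+Su 0.41 and 0.70, Irradiation+Ly+Imatinib 1.3 and 1.27 and Irradiation+Ly+Su 0.50 and 0.91. The Irradiation arrays were the highest of the 24 and lay close together, the Irradiation+Ly+Imatinib arrays came next, and Irradiation+Imatinib and Irradiation+Ly each had an array well apart from its partner.

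Ifi44, an interferon-induced protein of the antiviral response, read -1.26 and -0.96 in ctrl and 0.16 and -0.54 in Irradiation, 0.92 ± 0.27 (SE; adjusted p = 0.0455). In unirradiated drug groups it read Ly -1.58 and -1.63, Imatinib -1.24 and -1.68, Su -0.66 and -0.78, Ly+Imatinib -1.04 and -1.31 and Ly+Su -1.23 and -1.23. In irradiated drug groups it read Irradiation+Ly -1.23 and -1.42, Irradiation+Imatinib -1.37 and -0.67, Irradiation+Su -1.26 and -1.25, Irradiation+Ly+Imatinib -1.48 and -0.90 and Irradiation+Ly+Su -1.36 and -1.24. The Irradiation arrays were again the 2 highest. The Su arrays and Irradiation+Imatinib array 2 followed, and the rest overlapped. Another Ifi44 probe gave 0.60 ± 0.30 for Irradiation against ctrl, of the same sign but not called.

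Ifit3, a partner of Ifit1 in binding RNA, read 2.68 and 3.01 in ctrl and 3.62 and 3.34 in Irradiation, 0.63 ± 0.16 (SE; adjusted p = 0.0317). Across the other 20 arrays it lay within the range from 2.52 to 3.13, so that both Irradiation arrays were above all others. Another Ifit3 probe gave 0.03 ± 0.34 for Irradiation against ctrl and was not called, so the probes of Ifit3 did not show the same difference. For 7 members both Irradiation arrays exceeded the other 22 (Bst2, Ifi44, Ifit1, Ifit3, Isg15, Mx2 and Oas1a), as they did for 3.30% of all genes. Both exceeded both ctrl arrays for 16 members and for 22.5% of all genes.

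Mx1, a GTPase that traps the nucleocapsids of RNA viruses and is defective in many laboratory strains, had the largest estimate, but its arrays scattered. It read -4.84 and -3.45 in ctrl and -2.73 and -3.05 in Irradiation, 1.26 ± 0.48 (SE; adjusted p = 0.096). The unirradiated drug arrays were Ly -3.90 and -3.73, Imatinib -3.67 and -3.29, Su -3.67 and -3.47, Ly+Imatinib -3.55 and -4.32 and Ly+Su -3.90 and -3.96. The irradiated ones were Irradiation+Ly -2.18 and -3.39, Irradiation+Imatinib -4.22 and -3.20, Irradiation+Su -3.52 and -2.89, Irradiation+Ly+Imatinib -3.70 and -3.44 and Irradiation+Ly+Su -3.60 and -3.65. Irradiation+Ly array 1 was the highest of all and ctrl array 1 the lowest, and the group means were separated by less than the test required.

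Oas1a makes the oligoadenylates that activate RNase L. It read 0.03 and 0.97 in ctrl and 1.14 and 1.3 in Irradiation, 0.72 ± 0.30 (SE; adjusted p = 0.121). Its unirradiated drug arrays were Ly 1.01 and 0.46, Imatinib 0.27 and 0.62, Su 0.34 and 0.45, Ly+Imatinib 0.28 and -0.09 and Ly+Su 0.23 and 0.15. Its irradiated drug arrays were Irradiation+Ly 0.37 and 0.74, Irradiation+Imatinib 0.02 and 0.70, Irradiation+Su 0.32 and 0.59, Irradiation+Ly+Imatinib 0.84 and 0.62 and Irradiation+Ly+Su 0.46 and 0.41. The Irradiation arrays were the highest 2, with Ly array 1 and ctrl array 2 just below, and ctrl array 1 was among the lowest.

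Stat2, the partner of IRF9 in the ISRE-binding complex, had a negative estimate. It read 1.12 and 1.79 in ctrl and 0.02 and 1.26 in Irradiation, -0.81 ± 0.34 (SE; adjusted p = 0.125). Without irradiation the drug arrays read Ly 1.00 and 1.68, Imatinib 1.22 and 1.35, Su 1.01 and 1.19, Ly+Imatinib 1.00 and 0.99 and Ly+Su 1.5 and 1.02. With irradiation they read Irradiation+Ly 1.02 and 1.34, Irradiation+Imatinib 1.22 and 1.51, Irradiation+Su 1.45 and 1.35, Irradiation+Ly+Imatinib 1.26 and 1.17 and Irradiation+Ly+Su 1.51 and 1.45. Irradiation array 1 was the lowest of the 24, 1.24 below its partner, and the other 23 arrays overlapped. Without that array the difference was -0.19 (adjusted p = 0.834).

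Irf7, the master regulator of alpha interferon genes, was also low on that array. It read -1.40 and -0.07 in ctrl and -1.66 and -0.20 in Irradiation, -0.19 ± 0.48 (SE; adjusted p = 0.809). The unirradiated drug arrays were Ly -0.57 and -0.51, Imatinib -1.14 and -0.54, Su -1.26 and -1.28, Ly+Imatinib -0.72 and -0.98 and Ly+Su -0.92 and -1.24, and the irradiated ones Irradiation+Ly -1.31 and -0.35, Irradiation+Imatinib -0.91 and -0.18, Irradiation+Su -0.28 and -0.22, Irradiation+Ly+Imatinib -0.32 and -0.39 and Irradiation+Ly+Su -0.71 and -0.65. Irradiation array 1 was the lowest of 24 and ctrl array 2 the highest, and both groups covered almost the whole range. Irradiation array 1 was also the lowest for Irf9, Psmb9, Tap1, Tap2 and Ciita, and without it the last 4 had positive estimates, 0.39, 0.11, 0.23 and 0.22.

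The other effectors did not pass in this comparison. Ifit2 (0.60 ± 0.21), Mx2 (0.56 ± 0.20), Oas2 (0.68 ± 0.33), Usp18, which removes ISG15 from proteins and damps the receptor (0.33 ± 0.12), and Bst2, the tether of budding viruses (0.35 ± 0.13), had both Irradiation arrays above both ctrl arrays. Eif2ak2, the kinase PKR, had 0.58 ± 0.24, Ifih1, the RNA sensor MDA5, 0.33 ± 0.20, Oasl1 0.47 ± 0.38, Oasl2 0.34 ± 0.25 and Oas3 0.15 ± 0.76. Rsad2, viperin, had -0.39 ± 0.57, Ifi35 -0.17 ± 0.10 and the exonuclease Isg20 -0.24 ± 0.16. Among GTPases Irgm1 had 0.45 ± 0.18, Gbp2 -0.44 ± 0.15 and Igtp -0.12 ± 0.76. A further Oas3 probe, well above background on 19 arrays, gave 1.01 ± 0.36 and was not called. Further probes of Ifih1 (-0.18 ± 0.14) and Irf9 (0.21 ± 0.30) were of opposite sign to the probe that stood for the gene, and neither was called.

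The call count depended on single arrays. It was 0 without Irradiation array 1 (all genes: 0.446%), 14 without Irradiation array 2 (11 higher and 3 lower; all genes: 40.3%), 1 without ctrl array 1 (Irf9, lower) and 2 without ctrl array 2 (Ifit1 and Isg15). Without Irradiation array 1 the differences were 0.85 (adjusted p = 0.133) for Ifit1, 1.05 (adjusted p = 0.134) for Isg15, 0.50 (adjusted p = 0.251) for Ifit3 and 0.57 (adjusted p = 0.4) for Ifi44. The count was 0 with array weights and in a fit of the ctrl and Irradiation groups alone, and 1 with normexp background correction. It was 2 with quantile normalization, with no filter on background or with the mean of all probes of a gene. Where no share of all genes stands beside a count, it shows only how far the calls move, not an excess or a lack among the members.

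**Figure D1:**
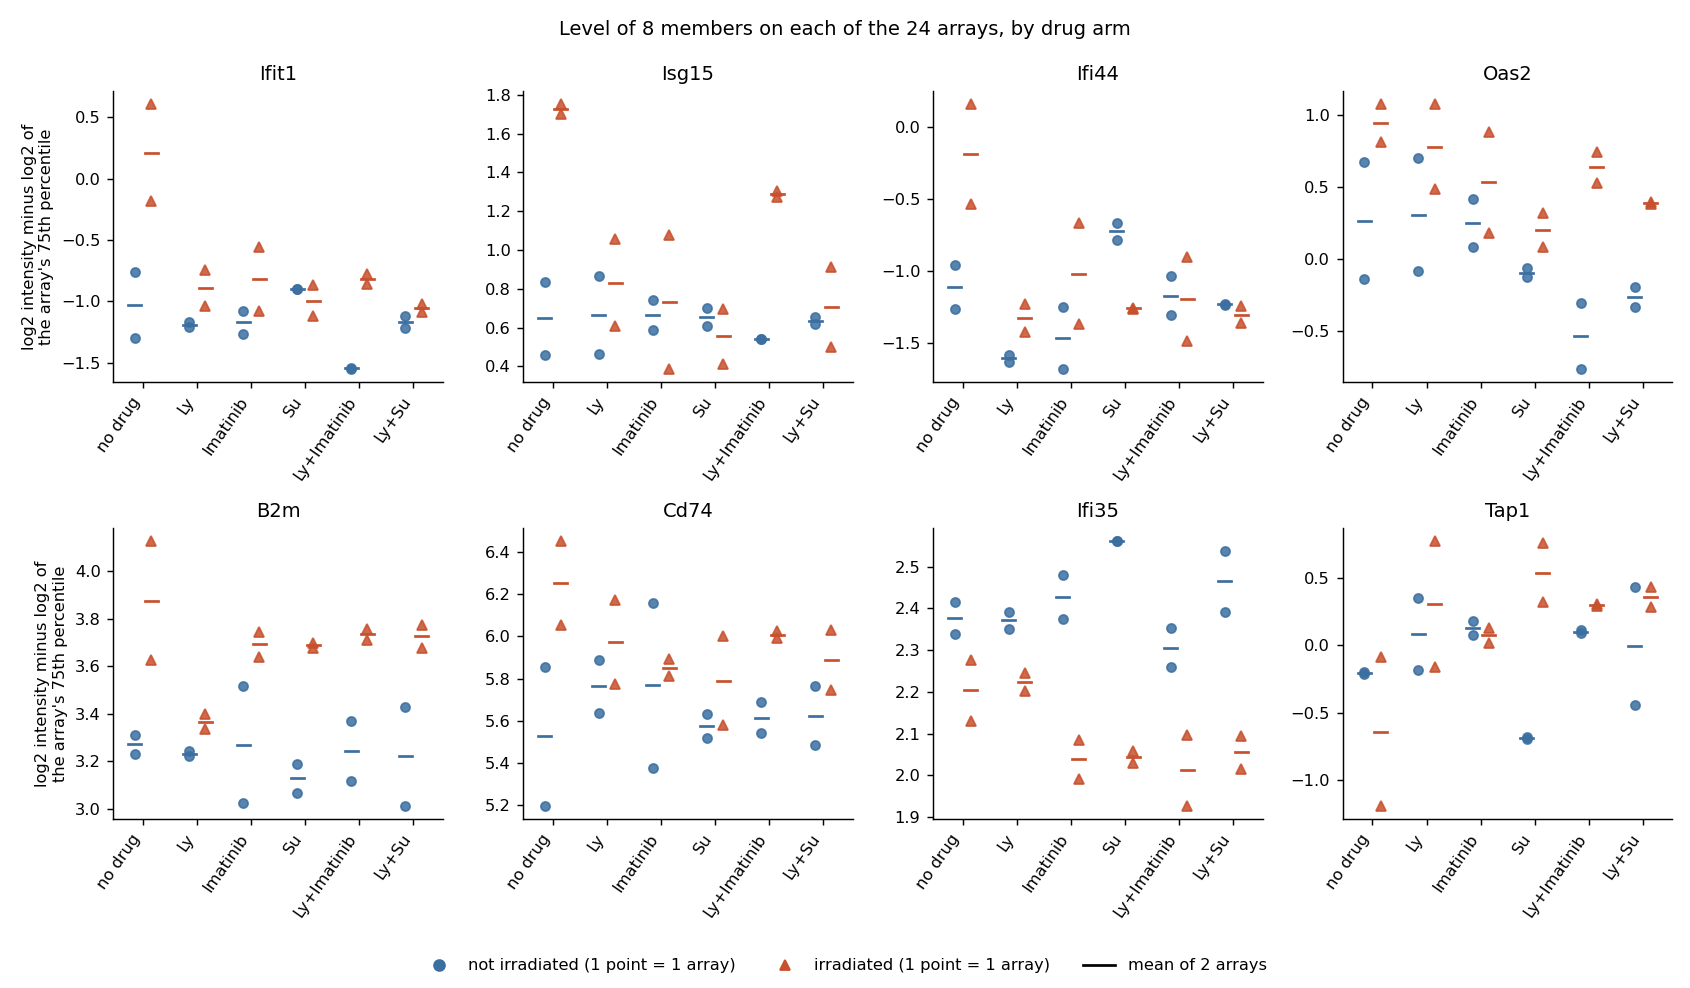
Levels of 8 members (log2 of signal relative to the array's 75th percentile) on each of the 24 arrays, by drug arm, with unirradiated and irradiated groups side by side; points are arrays, and the 2 Su points were counted as 1 sample. Ifit1, Isg15 and Ifi44 are highest on the Irradiation arrays, whereas Ifi35 is lower and B2m higher in irradiated groups across the drug arms.

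Averaged over the 6 drug arms, irradiated lung differed from unirradiated lung in both directions. Oas2, B2m, Ifit1 and Isg15 rose, by 1.51-fold, 1.37-fold, 1.36-fold and 1.26-fold. Ifi35, Isg20, Gbp2, Psmb10 and Irf1 fell, by 1.25-fold, 1.26-fold, 1.22-fold, 1.15-fold and 1.13-fold. These counts, 4 higher and 5 lower of 35, compare with 14.2% and 14.1% of all genes and are near that background. The median difference of the 35 was 0.05, against 0.01 over all genes. An unadjusted p under 0.05 was found for 12 members and for 8187 of the 20409 genes tested, which is a larger share.

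Ifi35, which forms a complex with the STAT-interacting protein NMI, had the smallest adjusted p of the 35, with -0.32 ± 0.04 (SE; adjusted p = 0.000312). Its ctrl arrays read 2.42 and 2.34 and its Irradiation arrays 2.13 and 2.28. In the unirradiated drug groups the readings were Ly 2.39 and 2.35, Imatinib 2.48 and 2.37, Su 2.56 and 2.56, Ly+Imatinib 2.35 and 2.26 and Ly+Su 2.54 and 2.39, and in the irradiated ones Irradiation+Ly 2.20 and 2.25, Irradiation+Imatinib 2.08 and 1.99, Irradiation+Su 2.06 and 2.03, Irradiation+Ly+Imatinib 1.93 and 2.10 and Irradiation+Ly+Su 2.02 and 2.09. Every irradiated group mean was below that of its own drug arm without irradiation, while the least change was with no drug and with Ly. The difference was -0.17 with no drug, -0.15 with Ly, -0.39 with Imatinib, -0.52 with Su, -0.29 with Ly+Imatinib and -0.41 with Ly+Su.

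B2m, the light chain shared by all classical MHC class I molecules, had 0.45 ± 0.08 (SE; adjusted p = 0.00145). It read 3.31 and 3.23 in ctrl and 4.13 and 3.63 in Irradiation. Unirradiated drug arrays were Ly 3.24 and 3.22, Imatinib 3.52 and 3.02, Su 3.19 and 3.07, Ly+Imatinib 3.37 and 3.12 and Ly+Su 3.43 and 3.01, and irradiated drug arrays Irradiation+Ly 3.34 and 3.40, Irradiation+Imatinib 3.64 and 3.74, Irradiation+Su 3.70 and 3.68, Irradiation+Ly+Imatinib 3.71 and 3.76 and Irradiation+Ly+Su 3.68 and 3.77. The estimate was positive in 6 of 6 arms: 0.60 with no drug, 0.14 with Ly, 0.42 with Imatinib, 0.56 with Su, 0.49 with Ly+Imatinib and 0.50 with Ly+Su. The Irradiation+Ly arrays were the lowest 2 irradiated arrays. Another B2m probe gave 0.05 ± 0.08 over the 6 arms and -0.39 ± 0.20 for Irradiation against ctrl, neither called, so the probes of B2m did not show the same difference.

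Oas2, another oligoadenylate synthetase, had 0.59 ± 0.14 (SE; adjusted p = 0.0073). It read -0.14 and 0.68 in ctrl and 0.81 and 1.08 in Irradiation. Unirradiated drug arrays were Ly 0.70 and -0.08, Imatinib 0.08 and 0.42, Su -0.06 and -0.12, Ly+Imatinib -0.31 and -0.76 and Ly+Su -0.19 and -0.33, and irradiated drug arrays Irradiation+Ly 0.48 and 1.08, Irradiation+Imatinib 0.18 and 0.89, Irradiation+Su 0.09 and 0.32, Irradiation+Ly+Imatinib 0.75 and 0.53 and Irradiation+Ly+Su 0.38 and 0.40. The estimate was positive in 6 of 6 arms, although ctrl array 2, Ly array 1 and Imatinib array 2 reached the irradiated range. The same arrays had high neutrophil markers: the mean of 6 such genes was 2.13, 3.66 and 2.91 there, against 0.62, 0.29 and 0.25 on their partner arrays, and the part of those cells in the Oas2 level was not tested.

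Isg20, an exonuclease that acts against RNA viruses, had -0.33 ± 0.07 (SE; adjusted p = 0.00376) and a negative estimate in 6 of 6 arms. It read 3.03 and 3.03 in ctrl and 2.86 and 2.72 in Irradiation. Its unirradiated drug arrays were Ly 3.18 and 2.72, Imatinib 2.85 and 2.85, Su 2.78 and 2.80, Ly+Imatinib 2.85 and 2.70 and Ly+Su 2.77 and 3.16, and its irradiated drug arrays Irradiation+Ly 2.70 and 2.58, Irradiation+Imatinib 2.57 and 2.32, Irradiation+Su 2.44 and 2.38, Irradiation+Ly+Imatinib 2.49 and 2.63 and Irradiation+Ly+Su 2.59 and 2.49. Irradiation arrays 1 and 2 were the 2 highest of the irradiated arrays, and Irradiation+Imatinib array 2 was the lowest of the 24. A further Isg20 probe gave -0.23 ± 0.05, also called lower.

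The remaining members called over the arms had smaller differences. Gbp2, a GTPase that coats vacuoles of intracellular pathogens, fell (-0.29 ± 0.07, adjusted p = 0.00594), as did Psmb10, a catalytic subunit of the immunoproteasome (-0.20 ± 0.06, adjusted p = 0.0186), and Irf1, the transcription factor downstream of interferon gamma (-0.18 ± 0.06, adjusted p = 0.0321). Irf1 was negative in 6 of 6 arms, and Gbp2 and Psmb10 in 5. Ifit1 rose over the arms by 0.44 ± 0.10 (SE; adjusted p = 0.00739) and Isg15 by 0.34 ± 0.10 (SE; adjusted p = 0.0221), both positive in 5 of 6 arms. Without Irradiation array 1 these 9 and Cd74 (0.35, adjusted p = 0.0406) were called (all genes: 33.8%). Without the arm that received no drug, the mean of the other 5 arms no longer called Ifit1 and Isg15, and 7 members were called (Irf1, Isg20, Oas2, Ifi35, Gbp2, Psmb10 and B2m; all genes: 25.3%). With slide as a random block in an additive model, 5 members were called (Isg20, Oas2, Ifi35, Gbp2 and B2m; all genes: 16.2%). The split of higher and lower calls was 6 and 3 after quantile normalization, 2 and 1 after normexp correction, and 6 and 4 with the mean of all probes of a gene. These splits stand without the shares of all genes in each direction, so they show only how far the calls move.

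Cd74, the invariant chain that guides MHC class II to endosomes, did not pass over the arms, 0.31 ± 0.12 (SE; adjusted p = 0.0572), though its estimate was positive in 6 of 6. It read 5.85 and 5.20 in ctrl and 6.05 and 6.45 in Irradiation. Unirradiated drug arrays were Ly 5.64 and 5.89, Imatinib 6.16 and 5.38, Su 5.52 and 5.63, Ly+Imatinib 5.69 and 5.54 and Ly+Su 5.76 and 5.49, and irradiated drug arrays Irradiation+Ly 5.78 and 6.17, Irradiation+Imatinib 5.89 and 5.81, Irradiation+Su 5.58 and 6.0, Irradiation+Ly+Imatinib 6.02 and 5.99 and Irradiation+Ly+Su 5.75 and 6.03. Irradiation array 2 was the highest and ctrl array 2 the lowest, and the irradiated and unirradiated arrays overlapped. Ciita, which switches on class II genes, had 0.27 ± 0.18 and was not called.

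Igtp, a GTPase of vacuolar immunity, had a large negative estimate over the arms, -0.46 ± 0.33 (SE; adjusted p = 0.316), and it rested on 1 array. It read 3.82 and 3.33 in ctrl and 3.49 and 3.42 in Irradiation. Unirradiated drug arrays were Ly 3.40 and 3.30, Imatinib 3.86 and 2.95, Su 3.06 and 2.93, Ly+Imatinib 3.31 and 3.01 and Ly+Su 3.75 and 3.1. Irradiated ones were Irradiation+Ly 3.04 and 3.64, Irradiation+Imatinib 3.0 and 2.81, Irradiation+Su 2.95 and 3.35, Irradiation+Ly+Imatinib -0.55 and 3.05 and Irradiation+Ly+Su 2.94 and 3.20. Irradiation+Ly+Imatinib array 1, which had 330 outlier spots against 5 to 80 on the others, was far below its partner, and the other 23 arrays lay within a range from 2.81 to 3.86.

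Tap1 and Tap2 form the pump that carries peptides to class I molecules, and Tapbp links it to them. Tap1 read -0.20 and -0.21 in ctrl and -1.19 and -0.09 in Irradiation. Its unirradiated drug arrays were Ly -0.19 and 0.35, Imatinib 0.18 and 0.08, Su -0.68 and -0.69, Ly+Imatinib 0.09 and 0.11 and Ly+Su 0.43 and -0.44, and its irradiated drug arrays Irradiation+Ly -0.16 and 0.77, Irradiation+Imatinib 0.02 and 0.13, Irradiation+Su 0.32 and 0.75, Irradiation+Ly+Imatinib 0.31 and 0.29 and Irradiation+Ly+Su 0.28 and 0.43. Irradiation array 1 was the lowest of 24 and the Su arrays came next, so that the Su arm had the largest irradiation estimate, 1.22 ± 0.45 (SE; adjusted p = 0.188). Over the arms Tap1 had 0.25 ± 0.16, Tap2 0.19 ± 0.17, Tapbp -0.06 ± 0.04, and the immunoproteasome subunits Psmb8 -0.04 ± 0.08 and Psmb9 -0.19 ± 0.10; none of these 5 passed.

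The rest of the list did not pass over the arms either. Stat2 had -0.03 ± 0.15, Irf7 0.29 ± 0.20 and Irf9 -0.11 ± 0.11. Mx1 had 0.52 ± 0.20 (SE; adjusted p = 0.0737), and the other effectors that were not called lay between -0.30 (Rsad2) and 0.23 (Oas1a), with Ifit2, Ifit3, Mx2, Oasl1, Oasl2, Ifi44 and Eif2ak2 positive and Oas3, Usp18, Ifih1 and Bst2 negative. Irgm1 had 0.17 ± 0.07.

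Other probes differed in sign, size or call from the probe that stood for the gene in several members. Over the arms, further probes were called higher for Ifit2 (0.55 ± 0.09), Ifit3 (0.47 ± 0.14), Irf9 (0.39 ± 0.13), Ifih1 (0.25 ± 0.06), Oas2 (1.13 ± 0.28; well above background on only 6 arrays) and Oas3 (1.06 ± 0.15; on 19 arrays), and lower for Psmb8 (-0.20 ± 0.07). A further Irf1 probe gave 0.00 ± 0.12, not called, and a further Tapbp probe gave 0.28 ± 0.19, of opposite sign to the first. Among these genes, Oas2 and Irf1 were called by the brighter probe and the others were not.

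**Figure D2:**
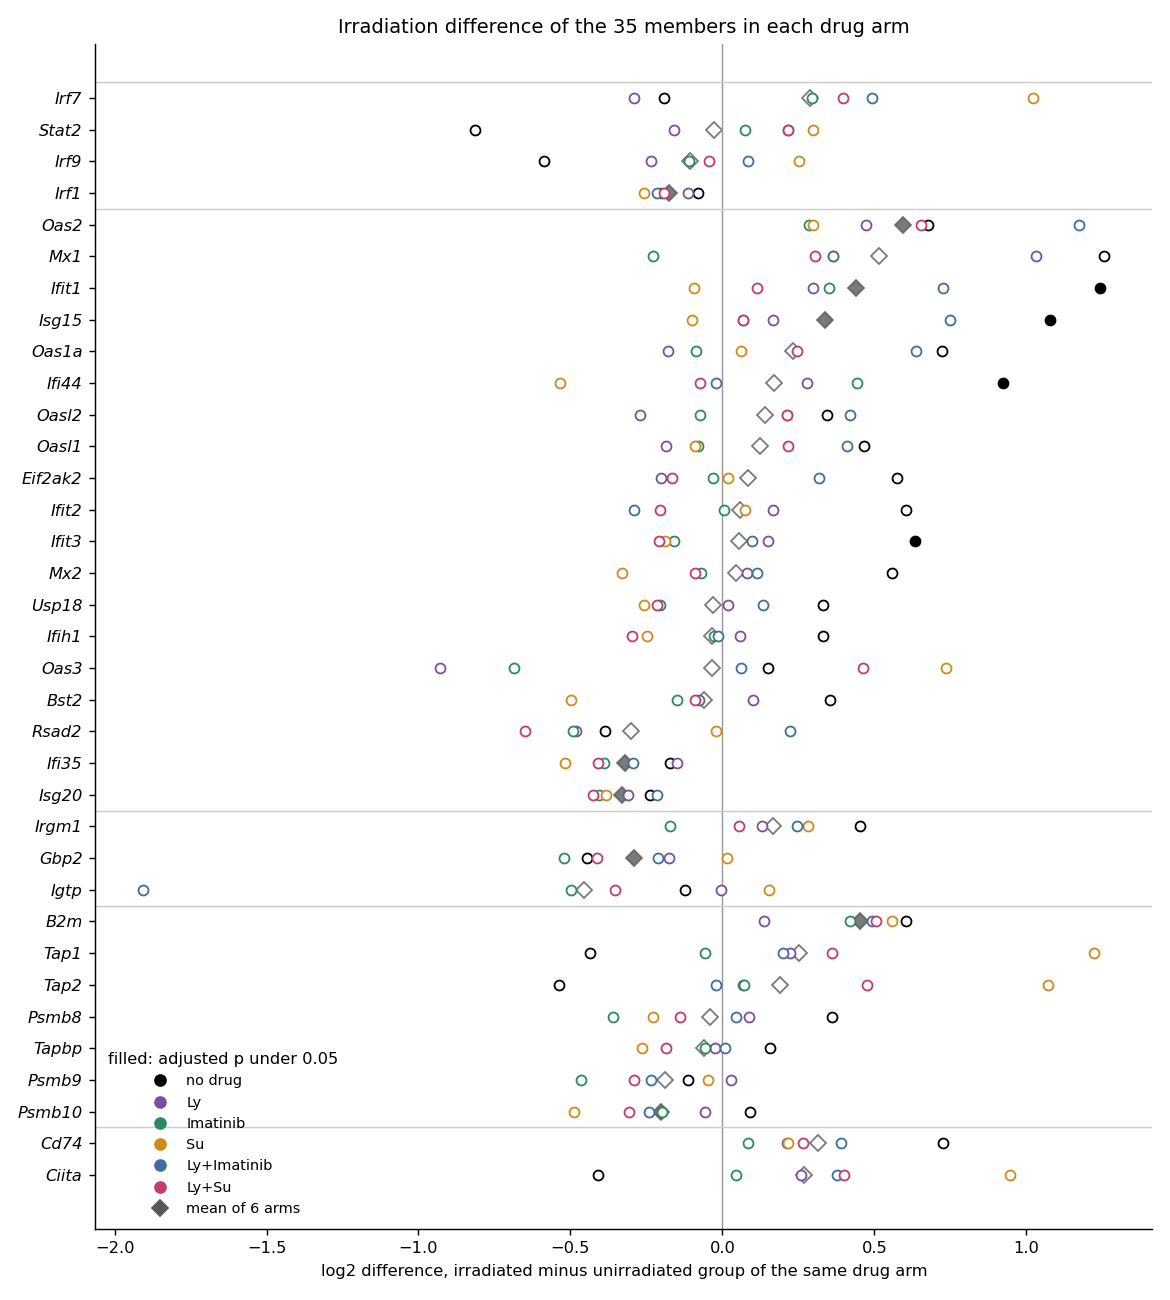
Irradiation difference (log2) of each member in each of the 6 drug arms, members ordered by role. Ifit1, Isg15, Ifit3 and Ifi44 have their largest difference with no drug, and Ifi35, Isg20 and Irf1 are below 0 in every arm.

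Within each drug arm, irradiation called none of the 35 by limma. The adjusted test called 0.0294% of all genes with Ly, 2.34% with Imatinib, 0.980% with Su, 2.14% with Ly+Imatinib and 2.44% with Ly+Su. Members at an unadjusted p under 0.05 numbered 1, 4, 6, 6 and 5 in the same order. Of the 20409 genes tested, 1071, 3493, 3505, 3872 and 3351 were under it, so the share of members was near or below that of all genes. With the Su arrays counted as separate samples, 4 members were called in the Su arm (all genes: 10.4%), and with normexp background correction 11 were called in the Ly+Imatinib arm (all genes: 42.2%), shares of the 35 that are near or below those of all genes. For Ifit1 the arm estimates were 0.30 with Ly, 0.35 with Imatinib, -0.09 with Su, 0.73 with Ly+Imatinib and 0.11 with Ly+Su, against 1.24 with no drug. For Isg15 they were 0.17 with Ly, 0.07 with Imatinib, -0.10 with Su, 0.75 with Ly+Imatinib and 0.07 with Ly+Su, against 1.08. For Ifi44 they were 0.28 with Ly, 0.44 with Imatinib, -0.53 with Su, -0.02 with Ly+Imatinib and -0.07 with Ly+Su, against 0.92. The no-drug arm thus had the highest estimate for these 3, with Ly+Imatinib next for Ifit1 and Isg15.

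Whether the irradiation difference depended on the drug arm was tested by the interaction itself. None of the 35 was called, against 0.431% of all genes. An unadjusted p under 0.05 was found for 5 of the 35 and for 2716 of the 20409 genes tested, which are similar shares. The 5 were Bst2 (adjusted p = 0.292), Usp18 (0.305), Isg15 (0.315), Ifit3 (0.316) and Ifit1 (0.331). The larger estimate with no drug was therefore not shown to differ from that of the drug arms. Without Irradiation array 1 none was called, and without Irradiation array 2, 5 members were called (all genes: 18.6%).

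Irradiated lungs that received a drug were then compared with Irradiation alone. All 5 comparisons use the same 2 Irradiation arrays, so they are not independent of each other or of the comparison with ctrl. Of the 19 antiviral effectors, the number with a negative estimate was 17 with Ly and 19 with each of the other 4 treatments, and the medians lay between -0.58 and -0.42. With Irradiation array 1 left out, the numbers were 16 with Ly, 18 with Imatinib, 13 with Su, 15 with Ly+Imatinib and 17 with Ly+Su, and the medians lay between -0.48 and -0.31. With Ly, none of the 35 was called (all genes called: 0.0686%), the nearest being Ifit1 (-1.11 ± 0.24, adjusted p = 0.0686) and Ifi44 (-1.14 ± 0.27, adjusted p = 0.0808). An unadjusted p under 0.05 was found for 16 of the 35 and for 4641 of the 20409 genes tested. This comparison lay within 1 slide, and the other 4, which gave calls, were between slides. With Imatinib, Ifit1, Ifit3, Isg15, Bst2 and Tapbp were lower (all genes lower: 3.07%). With Su, Ifit1, Ifit3, Isg15, Mx2, Ifi44, Bst2 and Tapbp were lower and Tap1 and Tap2 higher (all genes: 12.7% lower, 9.56% higher).

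With Ly+Imatinib, Ifit1, Ifit3, Mx2, Ifi44, Bst2 and Tapbp were lower (all genes lower: 6.53%). With Ly+Su, Ifit1, Ifit3, Isg15, Mx2, Usp18, Ifi44 and Bst2 were lower (all genes lower: 9.87%). Ifit1 differed by -1.03 ± 0.24 (SE; adjusted p = 0.0262) with Imatinib, -1.21 ± 0.24 (SE; adjusted p = 0.00653) with Su, -1.03 ± 0.24 (SE; adjusted p = 0.0172) with Ly+Imatinib and -1.27 ± 0.24 (SE; adjusted p = 0.00486) with Ly+Su. Isg15 differed by -0.99 ± 0.23 (SE; adjusted p = 0.0257), -1.17 ± 0.23 (SE; adjusted p = 0.00611), -0.44 ± 0.23 (SE; adjusted p = 0.189) and -1.02 ± 0.23 (SE; adjusted p = 0.01) in the same order, so it missed the threshold with Ly+Imatinib, whose arrays had the highest Isg15 of the irradiated drug groups. Bst2 differed by -0.56 ± 0.13, -0.72 ± 0.13, -0.42 ± 0.13 and -0.61 ± 0.13, and Ifit3 by -0.60 ± 0.16, -0.74 ± 0.16, -0.68 ± 0.16 and -0.87 ± 0.16.

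These counts also turned on the Irradiation arrays. Without Irradiation array 1, the members called were 0 with Ly, 0 with Imatinib, 2 with Su (Isg15 and Bst2), 0 with Ly+Imatinib and 3 with Ly+Su (Ifit1, Ifit3 and Bst2). Of all genes, 0.118%, 1.23%, 5.56%, 5.09% and 7.20% were then called. Without Irradiation array 2 the members called were 16, 16, 17, 15 and 16, and 35.6% to 46.7% of all genes were called. Ifit1 differed without Irradiation array 1 by -0.64 with Imatinib, -0.81 with Su, -0.64 with Ly+Imatinib and -0.87 with Ly+Su. Tap1 differed by 1.18 ± 0.37 (SE; adjusted p = 0.0366) with Su and by 0.63 (adjusted p = 0.35) without Irradiation array 1, and Tap2 by 1.26 ± 0.39 (SE; adjusted p = 0.0374) and by 0.49 (adjusted p = 0.397). With array weights, and in fits of the groups compared alone, no member was called in the 4 groups other than Irradiation+Ly. After normexp correction the counts in these groups were 0 with Imatinib, 3 with Su, 0 with Ly+Imatinib and 1 with Ly+Su, all lower. The counts after normexp correction, with array weights and of the groups compared alone stand without the share of all genes called. They show only how far the calls move.

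**Figure D3:**
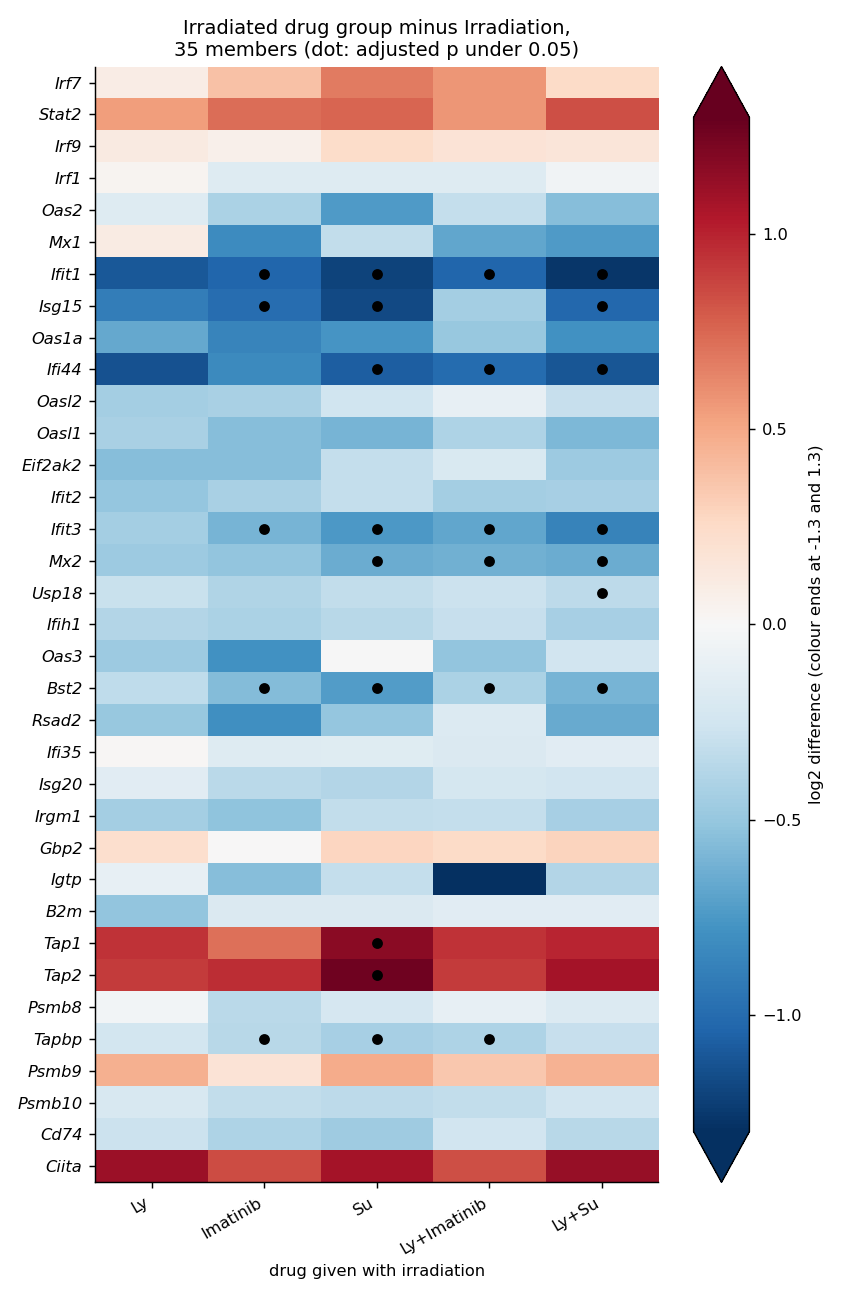
Difference (log2) of each member between each irradiated drug group and Irradiation alone; the 2 Irradiation arrays are shared by all 5 columns. Of 19 antiviral effectors, 17 with Ly and 19 with each other treatment lie below 0 (16, 18, 13, 15 and 17, in column order, without Irradiation array 1), Ifit1 by -1.03 with Imatinib and -1.27 with Ly+Su, whereas Tap1 and Tap2 lie above 0.

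In unirradiated lung none of the 35 genes was called by limma between a drug group and ctrl. The adjusted test called 0.00490% of all genes with Ly, 0.176% with Imatinib, 0.196% with Su, 1.53% with Ly+Imatinib and 0.470% with Ly+Su. Members at an unadjusted p under 0.05 numbered 0, 1, 0, 2 and 1 in the same order. Of the 20409 genes tested, 993, 1933, 2000, 3256 and 2500 were under it, each a larger share than that of the members. These 5 comparisons share the 2 ctrl arrays. Only Ly lay on the slide of ctrl, so for the other drug groups drug and slide cannot be told apart. The estimates nearest to a call were Oas2 with Ly+Imatinib, -0.80 ± 0.33 (SE; adjusted p = 0.245), and Psmb9 with Ly+Su, 0.63 ± 0.24 (SE; adjusted p = 0.287). The ctrl arrays themselves lay apart in Irf7 (-1.40 and -0.07), Oas3 (-4.45 and -2.53) and Oasl1 (-2.11 and -0.74).

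Adding Ly was averaged over 6 pairs of groups that differ only in Ly. None of the 35 was called (all genes: 6.25%). An unadjusted p under 0.05 was found for 4 of the 35 and for 3529 of the 20409 genes tested, which is a larger share. The 4 were Ifit1 (-0.33 ± 0.10, adjusted p = 0.091), Ifi44 (-0.34 ± 0.11, adjusted p = 0.11), Ifit3 (-0.17 ± 0.07) and Mx2 (-0.19 ± 0.08). Of the 19 antiviral effectors, 18 had a negative estimate, with a median of -0.06. In the pair Irradiation+Ly against Irradiation, Ifit1 differed by -1.11 and Ifi44 by -1.14, against -0.16 and -0.49 in Ly against ctrl. Leaving out Irradiation array 1, the pair had -0.71 for Ifit1 and -0.79 for Ifi44, 13 of the 19 effectors had a negative estimate for Ly added, and none of the 35 was called. Without Irradiation array 2, 4 members were called (all genes: 13.5%). Ly against ctrl and Irradiation+Ly against Irradiation each compare arrays of 1 slide, and the other pairs compare arrays of different slides.

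Imatinib and Su, alone or with Ly, were compared over 4 pairs of groups. None of the 35 was called (all genes called: 0.0833%). None had an unadjusted p under 0.05, against 1813 of the 20409 genes tested. The estimates ranged from -0.48 for Igtp, which rested on the array described above, to 0.17, and Tapbp had -0.12 ± 0.06 (SE; adjusted p = 0.567). Ifit1 differed by -0.06 ± 0.13 and Isg15 by 0.17 ± 0.12. A p that misses the threshold does not show that these drugs act alike on the genes.

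Other genes of the pathway were read from lists of ligands, receptors, sensors and presentation genes. Of all genes, 5.32% were called higher and 5.23% lower in Irradiation against ctrl, and 14.2% and 14.1% over the arms. The interferon-induced chemokines Cxcl9 and Cxcl10, which draw CXCR3-bearing lymphocytes, rose in Irradiation against ctrl by 2.87 ± 0.72 (SE; adjusted p = 0.0288) and 2.60 ± 0.52 (SE; adjusted p = 0.0151). Over the arms they rose by 1.34 ± 0.30 (SE; adjusted p = 0.00617) and 1.32 ± 0.22 (SE; adjusted p = 0.00108); they were the 2 of 3 listed chemokines that could be tested. The mean of the pair was -3.32 and -3.74 in ctrl, -0.28 and -1.31 in Irradiation, and -1.07 and -1.59 in Irradiation+Ly+Imatinib. In Irradiation+Su it was -3.0 and -1.15, so its arrays lay far apart.

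Of 11 further class II genes tested, 2 rose in Irradiation against ctrl, H2-DMa (0.83 ± 0.22) and H2-DMb1 (0.74 ± 0.20), which load peptides, and Rfxank, a subunit of the factor that binds class II promoters, fell (-0.63 ± 0.17). Over the arms 6 rose and 1 fell (all genes: 14.2% higher, 14.1% lower). The estimates included H2-Aa at 0.38 ± 0.11, H2-DMb2 at 0.35 ± 0.10, Rfx5 at 0.33 ± 0.05 and Rfxank at -0.53 ± 0.07. Rfx5 and Rfxank, subunits of the same factor, thus changed in opposite directions. Of 12 further class I genes, none passed in Irradiation against ctrl, and over the arms Canx, a chaperone, rose (0.19 ± 0.05) and Psme1, a proteasome activator, fell (-0.16 ± 0.04).

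Among 10 receptor and signalling genes, over the arms the gamma receptor gene Ifngr1 fell (-0.28 ± 0.07), as did the lambda receptor gene Ifnlr1 (-0.25 ± 0.07). For comparison, 14.2% of all genes were called higher and 14.1% lower over the arms. Of 12 sensors of nucleic acid none passed in Irradiation against ctrl, and over the arms Tlr9 (0.35 ± 0.08) and Zbp1 (0.34 ± 0.11) rose and Irf3 fell (-0.29 ± 0.05). Of 10 listed interferon genes 8 were on the array and 3 were bright enough to test; over the arms Ifnl3 rose (0.95 ± 0.27) and Ifna1 fell (-0.70 ± 0.20).

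Markers of immune and other cells were read in the same comparisons. Irradiation against ctrl called 5.32% of all genes higher and 5.23% lower. Over the arms 14.2% were called higher and 14.1% lower, so 1 call among 7 or 8 genes is near that share. In Irradiation against ctrl 4 of 9 macrophage and monocyte markers rose (Cd68, Adgre1, Mrc1 and Marco), and the mean of the 9 was 2.97 and 2.64, against 2.03 and 2.16. The dendritic marker Itgax rose as well, 1 of 7 tested. No marker of neutrophils (6), B cells (8), T and NK cells (10) or heart muscle (4) passed, and of 4 airway markers Tppp3 fell. All 6 neutrophil markers, all 4 heart muscle markers and all 4 airway markers had negative estimates, with medians of -1.70, -1.92 and -0.54. The mean of the neutrophil list was 0.62 and 2.13 in ctrl and -0.20 and -0.20 in Irradiation, and that of the heart muscle list was 1.66 and 1.80 against 0.36 and -0.27. Over the arms 3 of 9 macrophage markers rose (Cd68, Mrc1, Siglecf), and of 7 dendritic markers 3 rose (Itgax, Flt3, Clec9a) and Zbtb46 fell. Pax5 rose among 8 B cell markers, and of the 10 T and NK cell markers 5 fell (Cd3d, Cd8a, Cd8b1, Klrb1c, Nkg7). S100a9 and Mmp9 fell among 6 neutrophil markers, Myl7 among 4 of heart muscle, and Tppp3 and Cyp2f2 among 4 of airway, and every marker in these 3 lists had a negative estimate. The part of these cells in the levels of the 35 genes was not tested. Without Irradiation array 1, none of the 11 genes from these pathway and marker lists that had been called in Irradiation against ctrl was called by limma; Cxcl10 then differed by 1.86 (adjusted p = 0.156) and Cd68 by 1.46 (adjusted p = 0.129). Of the 37 called over the arms, 31 were called without that array, and Zbp1, Clec9a, S100a9, Mmp9, Cyp2f2 and Myl7 were not. Defining markers near background were Ccl22, well above it on 2 arrays, Siglech, on 8, and Cd4, on 18.

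**Figure D4:**
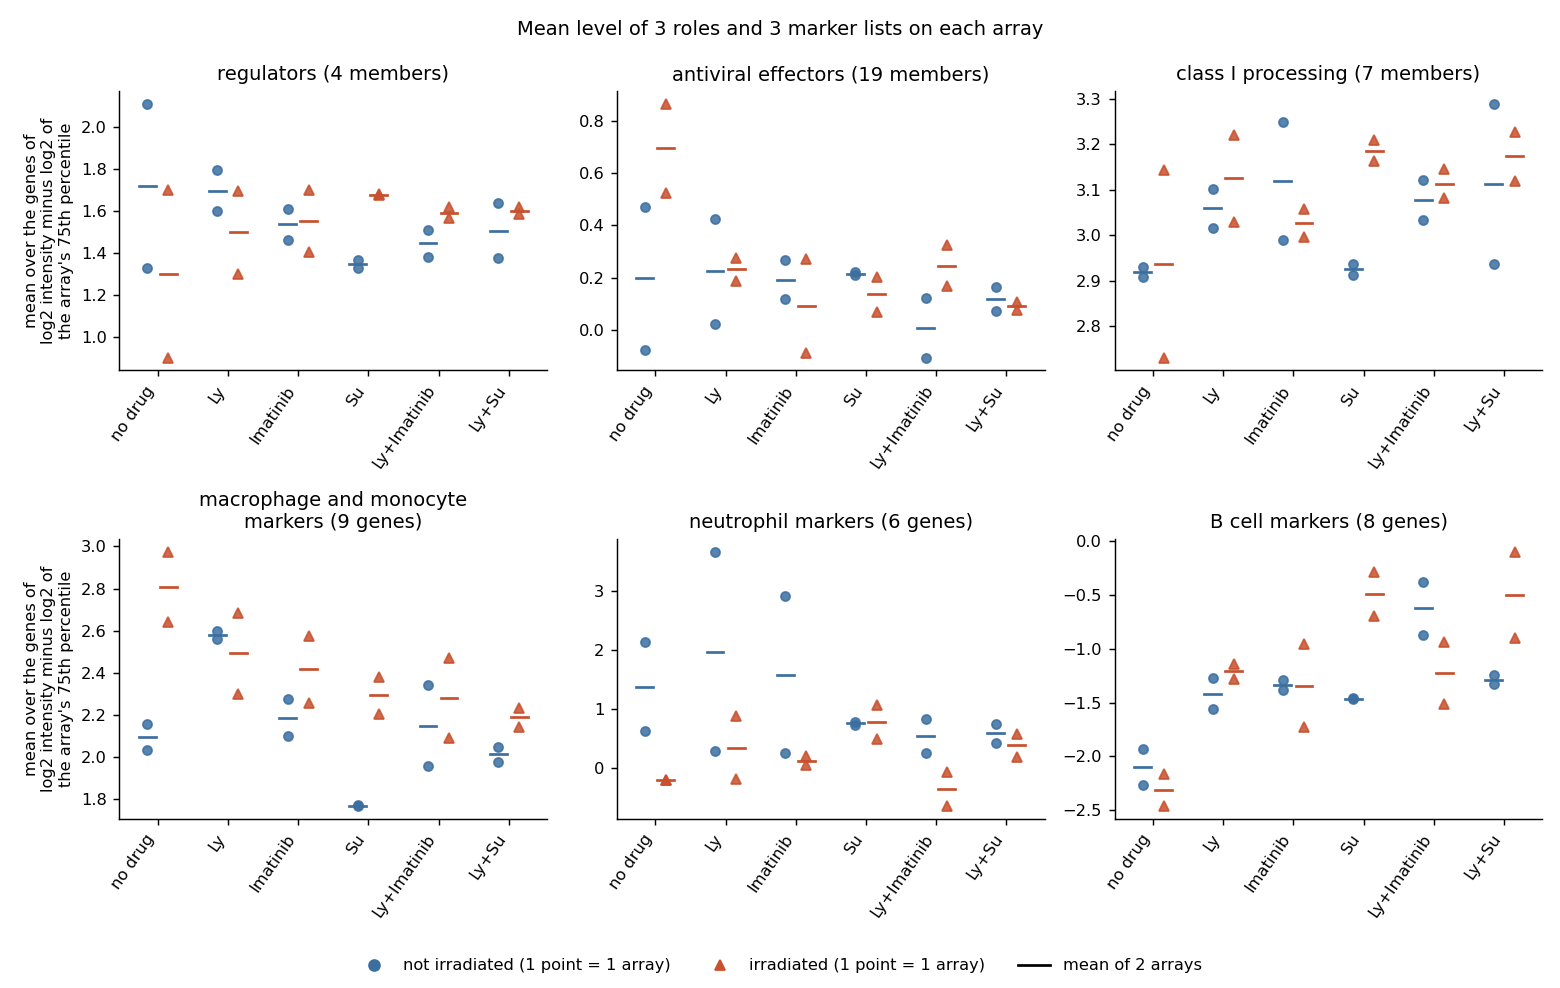
Mean level (log2) of the transcription factors, antiviral effectors and class I genes, and of macrophage, neutrophil and B cell marker lists, on each array by drug arm; the 2 Su points were counted as 1 sample. The antiviral effectors are highest on Irradiation array 1 (0.86, against 0.52 on its partner), and the macrophage list is highest there too (2.97).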

How the data were processed

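Total RNA of mouse lung was labelled with Cy3 and hybridised to 24 single-colour Agilent arrays, 2 in each of 12 groups, per the labels. The intensity values of each array were extracted by the authors with Feature Extraction 9.1.3.1, per the file headers, with background subtraction and spatial detrending; arrays were not scaled to each other. A series table, also deposited, held the same intensity values times a constant, with ratios of 0.995 to 1.005 after its removal, and served as an alternative; how it was made is not given in the sources used here.

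Spots were used as log2 of the processed signal minus log2 of the array's 75th percentile. Outlier spots were left out, which dropped 619 of 41174 probes, and spots of a probe were averaged. The probe with the highest mean stood for a gene. A gene was tested if well above background on both arrays of a group. Group means were fitted with limma 3.58.1 in R 4.3.3 (lmFit and eBayes, 11 residual degrees of freedom) and adjusted by Benjamini-Hochberg over 20409 genes, threshold 0.05. The interaction is an F test of the 5 differences between drug arms and no drug. The design planned 24 separate arrays; the Su arrays were averaged after their values were seen, leaving 23 samples. The fit was tested on simulated data.

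All 35 genes are named, and values on every array are given for 14 of them: those with the largest differences averaged over the arms, in Irradiation against ctrl, for Ly added and for Imatinib against Su, and Stat2, Irf7, B2m and Cd74. The members and lists were chosen with earlier results of these data known. A gene was left out of the pathway lists and is not reported here. Alternatives were background correction, normalization, filter, probe choice, array weights, replicate block, slide block and leaving out each array. Promoter sequences are from RefSeq. The number of arrays limits the precision.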

Additional observations from a re-analysis of the deposited data

How the results depend on the processing

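Groups of 2 arrays, 1 array that stood apart and slides that follow irradiation limit these results. Counts of members called changed by over 1.5 times in the following cases. With normexp background correction they were 1 for Irradiation against ctrl, 3 averaged over the arms, 11 for Irradiation+Ly+Imatinib against Ly+Imatinib, and, against Irradiation, 0 with Imatinib, 3 with Su, 0 with Ly+Imatinib and 1 with Ly+Su. With quantile normalization they were 2 for Irradiation against ctrl, and 1 with Imatinib and 3 with Ly+Imatinib against Irradiation. With no filter they were 2 for Irradiation against ctrl, 1 for Irradiation+Ly+Su against Ly+Su and 3 for Irradiation+Imatinib against Irradiation. With the mean of all probes they were 2 for Irradiation against ctrl, and 3 with Imatinib and 2 with Ly+Imatinib against Irradiation. With array weights they were 0 for Irradiation against ctrl, 1, 6, 3 and 3 for irradiation in the Imatinib, Su, Ly+Imatinib and Ly+Su arms, and 0 for the last 4 groups against Irradiation. Fits of the groups compared alone gave 0 for Irradiation against ctrl and for those 4 groups. These fits use fewer samples, and for the other alternatives the cause was not tested. Counts in this section stand without the share of all genes called under the same alternative. They show only how far the calls move, not an excess among the members.

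Some alternatives were chosen after seeing the data. With both Su arrays as separate samples the counts were 1 for Irradiation+Imatinib against Imatinib, 4 for Irradiation+Su against Su, 1 for Irradiation+Ly+Su against Ly+Su and 1 for Irradiation+Ly against Irradiation. Averaged over the arms, 5 were called with slide as a random block in an additive model, and 5 without the arms Ly+Imatinib and Ly+Su. A slide block could not be fitted with 12 group means.

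Leaving out each array gave 0 to 14 for Irradiation against ctrl and 8 to 12 averaged over the arms. Irradiation within the Ly, Imatinib, Su and Ly+Su arms stayed at 0, and within Ly+Imatinib it was 0 to 1. Against Irradiation the ranges were 0 to 16 with Ly, 0 to 16 with Imatinib, 1 to 17 with Su, 0 to 15 with Ly+Imatinib and 1 to 16 with Ly+Su. Against ctrl they were 0 to 1 for Ly+Imatinib and 0 for the other 4 drug groups. Ly added gave 0 to 4, Imatinib against Su 0 to 1 and the interaction 0 to 5.

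Replicate numbers did not pair the samples: over 55 pairs of groups the correlation of same-numbered deviations had a median of 0.0154 (-0.202 to 0.251), and 18 exceeded 0.1. With the replicate block the counts were 4 for Irradiation against ctrl, 9 averaged over the arms, and 6 with Imatinib and 11 with Su against Irradiation; it moved no count by over 1.5 times. For the irradiated drug groups against Irradiation, signs were compared only without Irradiation array 1, and no called member changed sign. In Irradiation against ctrl and averaged over the arms, no called member changed sign under the alternatives run. Estimates of members that were not called did: at least 1 alternative turned the sign of 16 of the 35 for Irradiation against ctrl and of 15 averaged over the arms.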
